A study of Mus musculus with 21 samples.

Results

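The 9 genes described here encode enzymes of heme synthesis and the mitochondrial carrier that feeds the pathway. In pathway order they are Alas1, Alas2, Slc25a38, Alad, Uros, Urod, Cpox, Ppox and Fech. They were picked by gene symbol through the Entrez IDs of the deposited table and are 9 of its 30519 genes. All 9 passed the filter on low counts in the HSC, MEP and joint fits. The pathway step between Alad and Uros is not analysed here.

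Heme synthesis starts in mitochondria, where glycine and succinyl-CoA are joined to 5-aminolevulinic acid. The intermediate is carried through several cytosolic steps and returns to mitochondria, where iron is inserted. The first step has a housekeeping enzyme, Alas1, and an erythroid enzyme, Alas2, whose gene lies on the X chromosome. In erythroid cells the pathway is induced together with globin genes, and GATA1 is a known activator of Alas2. Etv6, the mutated gene of the study, encodes a repressor of the ETS family of DNA-binding proteins.

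Cells were sorted from mouse bone marrow as megakaryocyte-erythroid progenitors (MEP) or hematopoietic stem cells (HSC). The MEP libraries came from mice labelled Etv6 P216L (n = 3), Etv6 S211I (n = 2), both changes together (the double mutant, n = 3) and Etv6 wild type (WT, n = 2). The HSC libraries came from the same genotypes, with n = 3 for P216L, 2 for S211I, 3 for the double mutant and 3 for WT. The labels give no age or sex, and do not say whether 1 or both alleles carry a change or whether each library is a separate animal. The mutants are amino acid changes, so the level of Etv6 does not check the labels. One label field spells the S211I change as P211I, and the form in the sample titles is used.

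To show the regulatory sequence ahead of the members, the 250 bases before each RefSeq start site (mouse build GRCm38.p6) were searched on both strands for the letters AGATAA, a binding sequence of GATA factors, and for CCGGAAG, a binding sequence of ETS factors. The table held 8 of the 9 genes with 11 start sites, and Fech was not among those shown. AGATAA was found before 1 of the 8 genes, Alas2, and before 11.4% of all genes searched. Other forms of the GATA sequence were not searched, so the other members may hold them. CCGGAAG was found before 3 of the 8, Slc25a38, Alad and Uros, and before 7.83% of all genes. Alad and Uros each had 2 start sites, and the match lay before only 1 of them. The KLF-type letters CCNCNCCC were found before 5 of the 8 and before 48.5% of all genes. The 4 sequences with an AGATAA or CCGGAAG match are printed 5′ to 3′ on the strand of the gene. Matched letters of these 2 searches are in capitals (read on the opposite strand for Alas2, Alad and Uros). A match describes the letters, not a bound site. The windows are chrX:150547167-150547416 (+) for Alas2, chr9:120110132-120110381 (+) for Slc25a38, chr4:62519910-62520159 (−) for Alad and chr7:133709296-133709545 (−) for Uros.
Alas2: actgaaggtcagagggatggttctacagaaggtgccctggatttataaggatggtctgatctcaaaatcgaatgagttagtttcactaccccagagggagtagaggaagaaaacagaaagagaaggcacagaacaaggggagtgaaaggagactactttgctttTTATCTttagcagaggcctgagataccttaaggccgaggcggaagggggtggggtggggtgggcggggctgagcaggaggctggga
Slc25a38: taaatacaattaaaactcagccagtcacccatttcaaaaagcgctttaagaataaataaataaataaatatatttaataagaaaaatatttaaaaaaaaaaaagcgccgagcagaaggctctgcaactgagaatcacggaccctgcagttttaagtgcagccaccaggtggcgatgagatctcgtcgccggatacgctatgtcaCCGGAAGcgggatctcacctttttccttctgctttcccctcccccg
Alad: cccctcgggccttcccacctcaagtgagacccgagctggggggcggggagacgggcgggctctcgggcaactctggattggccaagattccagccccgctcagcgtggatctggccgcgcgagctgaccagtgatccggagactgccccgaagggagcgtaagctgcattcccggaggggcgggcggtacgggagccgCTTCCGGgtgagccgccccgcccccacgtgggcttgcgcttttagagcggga
Uros: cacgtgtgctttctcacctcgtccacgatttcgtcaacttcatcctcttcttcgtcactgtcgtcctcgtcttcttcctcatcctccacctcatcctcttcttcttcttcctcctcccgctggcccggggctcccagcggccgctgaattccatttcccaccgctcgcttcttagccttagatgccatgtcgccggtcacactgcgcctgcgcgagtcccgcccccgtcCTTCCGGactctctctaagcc
The first base of the match lies at −86 from the start site in Alas2, −46 in Slc25a38, −52 in Alad and −21 in Uros.

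MEP libraries held 3387389 to 12130358 counts, and 10 of the 11 HSC libraries held 151216 to 2250654 counts. Replicate 2 of HSC S211I, as labelled, reached 13154016 counts. Its log2 profile correlated at r = 0.98 with the mean of the MEP libraries over 12052 genes, where the other HSC libraries gave 0.40 to 0.72 and single MEP libraries 0.98 to 0.99 against the mean of the rest. Its values are given apart below. It stayed in the HSC and joint fits under its label, and several S211I results are also given without it. All 20 erythroid marker genes were read in MEP, with summed levels of 22564 to 27676 CPM (counts scaled to 1000000 per library). The same sum was 9051 to 43008 CPM in HSC P216L, 12393 in HSC S211I replicate 1 (23420 in replicate 2), 8859 to 18387 in HSC double mutants and 5130 to 7385 in HSC WT. The 18 stem cell markers summed to 619 to 931 CPM in MEP, and in HSC to 2177 to 4290 in P216L, 4365 in S211I replicate 1 (1195 in replicate 2), 2228 to 4905 in double mutants and 5905 to 7299 in WT. Hoxb5 and Slamf1 were at 0 in all HSC WT libraries. The HSC mutant libraries thus had more erythroid and fewer stem cell marker counts than every HSC WT library, and the part of this in the HSC results below was not tested. In bulk libraries, fewer cells of a type and less RNA per cell cannot be told apart.

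In MEP all 9 genes were read in all 10 libraries, and their summed level stayed between 2554 and 2836 CPM. The coefficient of variation over the 10 libraries was 6.40 to 13.0% for 8 of the genes and 58.2% for Alas2. Per kilobase of coding sequence, Fech, which encodes the ferrochelatase that inserts iron, had the highest level (median 702 CPM per kb) in all 10. Alad, the aminolevulinate dehydratase, had a median of 526 CPM per kb and Cpox, the coproporphyrinogen oxidase, 471 CPM per kb, and Alad was above Cpox in 7 of 10 libraries, so these neighbours overlap. Urod, the uroporphyrinogen decarboxylase, followed with a median of 279 CPM per kb. Slc25a38, the mitochondrial glycine carrier, had a median of 126 CPM per kb, Uros, the uroporphyrinogen III synthase, 106, and Ppox, the protoporphyrinogen oxidase, 72.4. At the bottom were Alas1 with a median of 26.3 CPM per kb and Alas2 with 7.06. Coding length leaves out UTRs. With the length of the whole transcript (6571 bases for Fech, of which 1266 are coding), Fech stood 4th, behind Alad, Urod and Cpox. Alas1 and Alas2 were the lowest members by both lengths.

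**Figure D1:**
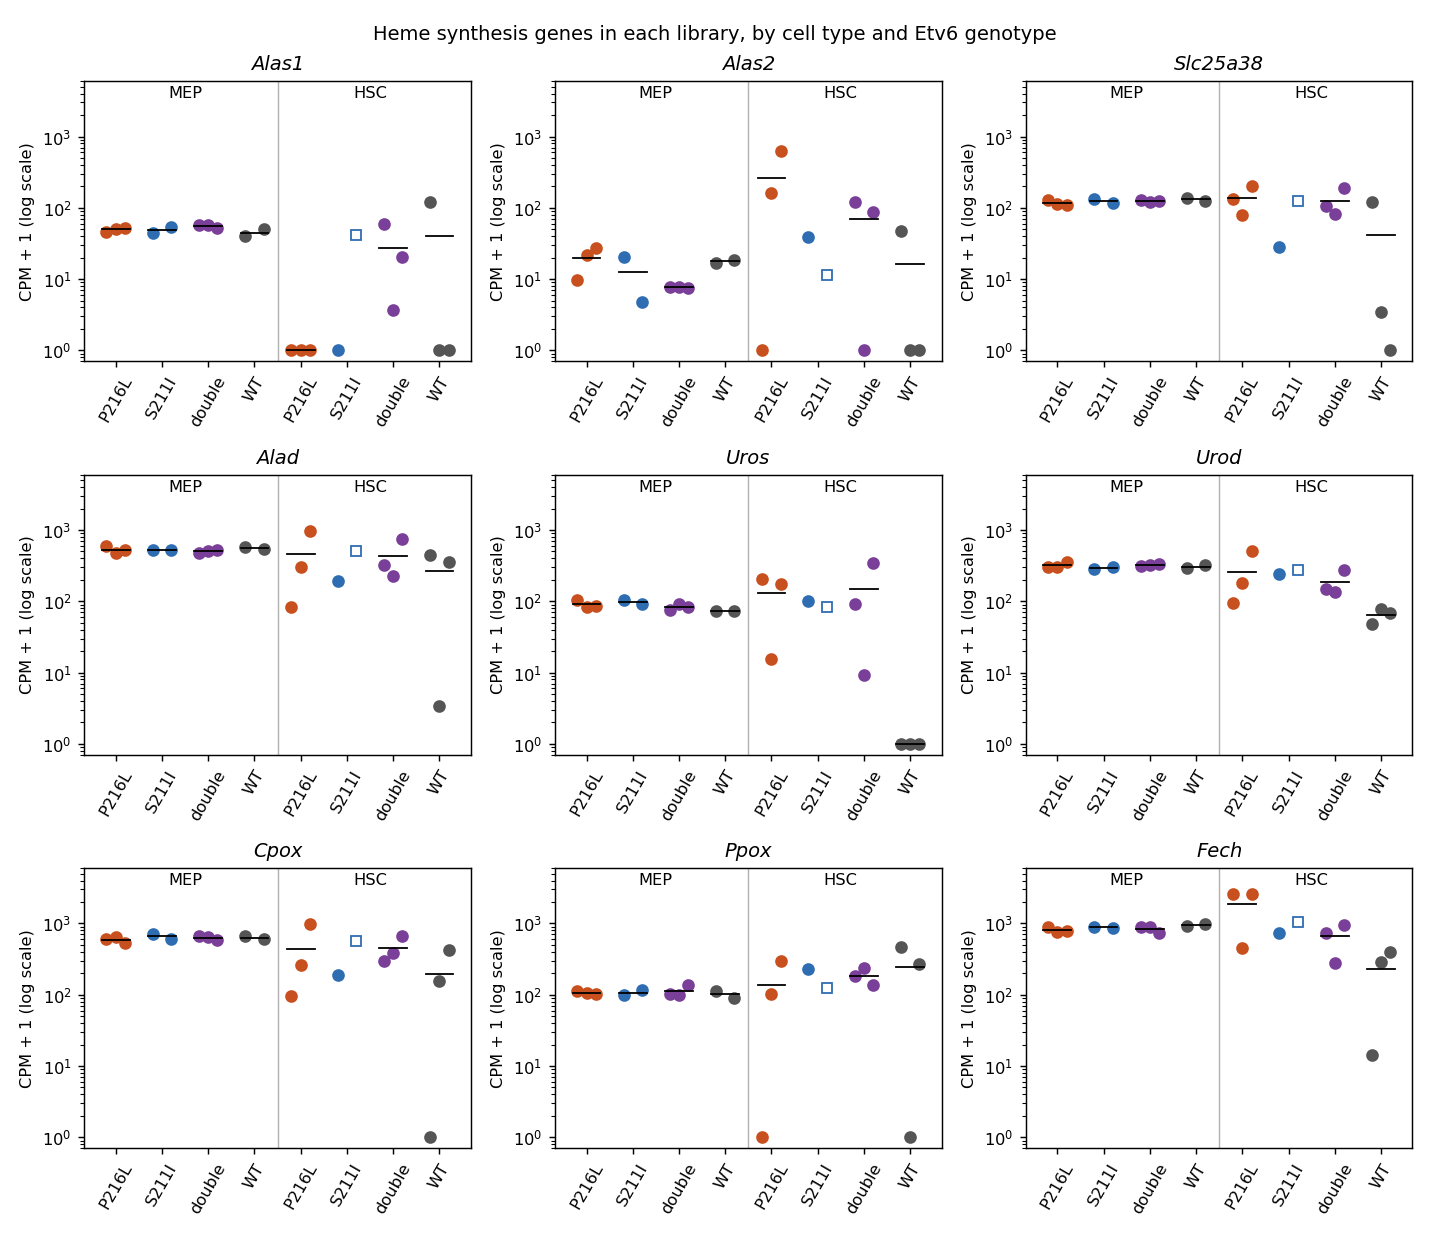
Level of each heme synthesis gene in every library, as CPM + 1 on a log axis, with MEP groups left of HSC groups and WT last in each. Points are libraries, lines are group means, and the open square without a mean line is HSC S211I replicate 2. MEP points lie close together for every gene but Alas2, HSC points spread widely, and Uros is at 0 in the 3 HSC WT libraries.

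The comparison of MEP with HSC in WT asks how the pathway differs between progenitor and stem cell without a mutation. Uros had 71.4 and 71.8 CPM in MEP WT, and 0 in all 3 HSC WT libraries, where 3 counts over the group would be 2.88 CPM. The groups do not overlap, and Uros was at least 24.9-fold higher in MEP (adjusted p = 0.0156, edgeR). Without HSC WT replicate 2 or 3 the bound was 15.1 or 13.4-fold. Urod had 292 and 317 CPM in MEP WT, and 46.3, 78.0 and 66.6 CPM in HSC WT, again without overlap. It was higher by 2.88 ± 0.84 (SE) on the log2 scale (adjusted p = 0.0494). These 2 of 9 genes rose in MEP, where 3.62% of all 12036 tested genes did. Fech had 923 and 986 CPM in MEP WT, and 13.2, 285 and 393 CPM in HSC WT. Its difference of 2.56 ± 0.80 on the log2 scale did not pass (adjusted p = 0.0589), and without HSC WT replicate 3 or with voom it did.

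Cpox had 663 and 597 CPM in MEP WT, and 0, 156 and 423 CPM in HSC WT (2.18 ± 1.02 on the log2 scale, adjusted p = 0.164). Alad had 583 and 540 CPM in MEP WT, and 450, 2.44 and 350 CPM in HSC WT. Slc25a38 had 138 and 122 CPM in MEP WT, and 119, 2.44 and 0 CPM in HSC WT, and it passed without HSC WT replicate 1 and with voom. With Uros, Urod and Fech these make 6 of 9 genes whose MEP WT libraries lay above all HSC WT libraries, where 35.8% of all tested genes did, and 0 of 9 lay below, where 8.24% did. Ppox had 111 and 89.1 CPM in MEP WT and 471, 0 and 265 CPM in HSC WT, and these ranges overlap. Alas1 had 38.9 and 48.6 CPM in MEP WT, and 119, 0 and 0 CPM in HSC WT. Alas2 had 16.1 and 17.7 CPM in MEP WT, and 46.3, 0 and 0 CPM in HSC WT, so neither gene of the first step was separated. Of the 9 genes, 8 had a positive log2 difference, where 62.9% of all tested genes did. The median was 2.18 against 0.90 over all tested genes. The joint fit gave both cell types 1 spread per gene. The common biological coefficient of variation was 1.6 in the HSC fit, 0.174 in the MEP fit and 1.06 in the joint fit. The joint spread was thus below that of HSC alone, and its part in the calls between cell types was not tested. The Uros call held in 11 of 13 alternatives (adjusted p 0.000305 to 0.111) and was lost without HSC WT replicate 2 (0.0552) and in a fit of the WT libraries alone (0.111). The Urod call held in 3 of 13 (adjusted p 0.00722 to 0.165), with DESeq2, with voom and without HSC S211I replicate 2, and was lost without each of the WT libraries.

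Within the mutants the same comparison gave 0 called genes in each genotype by edgeR (1 of 9 in P216L, 0 in S211I and 0 in the double mutant at an unadjusted p under 0.05). DESeq2 called 1, 0 and 0, and voom 0 in each. All tested genes were called at 0.0748% in P216L, 0% in S211I and 0.241% in the double mutant. In P216L, Alas1 had 45.3, 49.99 and 51.4 CPM in MEP, and 0 in all 3 HSC libraries, where 3 counts over the group are 1.43 CPM. It was at least 34.1-fold higher in MEP (20.5 and 20.3-fold without HSC P216L replicates 2 and 3), but the edgeR fit did not pass (adjusted p = 0.101), while DESeq2 called it (0.00257). Alas2 went the other way in level, with 8.80, 20.9 and 26.5 CPM in MEP P216L and 0, 162 and 630 CPM in HSC P216L (−3.63 ± 1.79 on the log2 scale, adjusted p = 0.262). In the double mutant it had 6.65, 6.77 and 6.55 CPM in MEP, and 120, 0 and 85.8 CPM in HSC (−3.21 ± 1.76, adjusted p = 0.400). Both HSC groups held libraries above and below every MEP library of the genotype. Above HSC without overlap lay 1 of 9 genes in P216L (Alas1), 4 in S211I and 1 in the double mutant (Urod), where 26.4, 22.6 and 21.2% of all tested genes did. Below lay 0, 1 and 1 (Ppox in both), where 4.2, 15.9 and 9.44% did. Against HSC S211I replicate 1 alone, 6 genes lay above (Alas1, Slc25a38, Alad, Urod, Cpox and Fech) and 2 below (Alas2 and Ppox), where 58 and 32.2% of all tested genes did. For S211I, leaving out HSC replicate 2 left 0 genes called, with Slc25a38, Alad and Cpox at 2.86 ± 1.99, 2.12 ± 1.57 and 2.46 ± 1.58 on the log2 scale, against 0.77 ± 1.43, 0.66 ± 1.13 and 0.88 ± 1.13 with it.

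**Figure D2:**
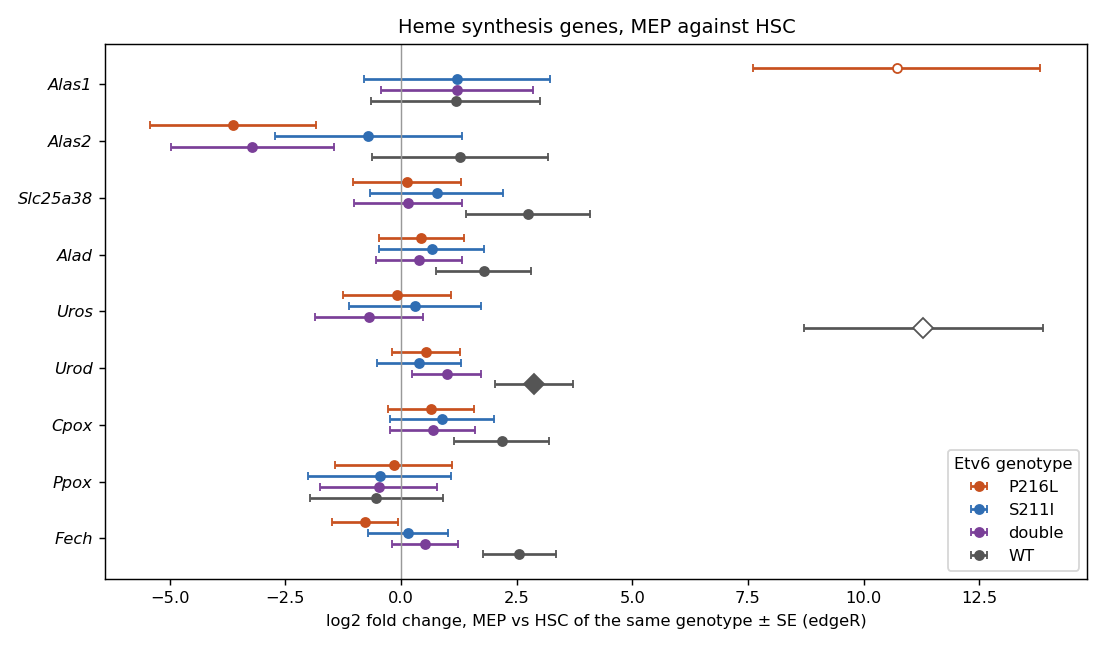
Log2 fold change of each heme synthesis gene in MEP against HSC of the same genotype, with SE bars from edgeR. Diamonds passed an adjusted p of 0.05, and open symbols mark a group with all libraries at 0, where the fitted value depends on the prior count. In WT 8 of 9 points lie right of 0, while Alas2 lies left of 0 in the 3 mutant genotypes. The S211I points include HSC S211I replicate 2.

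The HSC mutants were each compared with HSC WT, so these 3 comparisons share the WT libraries and their values stand side by side without a test between them. Fech rose in HSC P216L, with 2586, 455 and 2618 CPM, against 13.2, 285 and 393 CPM in HSC WT. The 2 highest P216L libraries lay far above WT and the third just above its top. The means were 1886 ± 1240 CPM in P216L and 231 ± 196 CPM in WT (SD, n = 3 each), a log2 difference of 3.03 ± 0.64 (SE, adjusted p = 0.0037, edgeR). Fech was the 1 of 9 genes called, where 0.106% of all 9471 tested genes were. Leaving out P216L replicate 1 ended the call (adjusted p = 0.454), as did leaving out P216L replicate 3 (0.260), WT replicate 1 (0.192) or WT replicate 2 (0.0552). Over 14 alternatives the log2 difference ran from 2.41 to 3.78 and the adjusted p from 0.00115 to 0.994. With DESeq2 Fech was not called (0.0750) and the 1 member called was Uros.

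P216L replicates 1 and 3 stood apart by other measures too. Replicate 1 had 3988 genes detected, the fewest of all 21 libraries (the next had 5448), and Fech made up 2586 of the 3194 CPM of its 9 genes. Replicate 3 had the highest erythroid marker sum of all 21 libraries, and the late erythroid genes Slc4a1 and Epb42, for a membrane transporter and a membrane skeleton protein of red cells, were at 594 and 270.5 CPM there, against 0 in replicates 1 and 2 and in all HSC WT libraries. Replicate 1 held 12819 CPM over 10 endothelial and stromal markers, against 30.6 to 3526 CPM in the other HSC libraries. That sum was the collagen genes Col1a1 and Col1a2, at 3813 and 9007 CPM, and the other 8 markers, Cdh5, Pecam1 and Lepr among them, were at 0. The part of any of these in the Fech result was not tested.

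In HSC S211I, Fech had 740 CPM in replicate 1 and 1032 CPM in replicate 2, both above all HSC WT libraries, and did not pass (2.15 ± 0.66 on the log2 scale, adjusted p = 0.294; 1.65 ± 0.78 and 0.912 without replicate 2). In the HSC double mutant, Fech had 728, 276 and 965 CPM, which overlaps WT (1.70 ± 0.61, adjusted p = 0.468). By edgeR 0 of 9 genes were called in S211I and 0 of 9 in the double mutant, with 2 each at an unadjusted p under 0.05. DESeq2 called 0 in S211I and 1 in the double mutant, and voom 1 and 0, each time Uros. All tested genes were called at 0.0845% in S211I (0.018% and 0 of 9 members without replicate 2) and 0.0739% in the double mutant.

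Uros was the member at 0 in all HSC WT libraries, and it was read in every mutant HSC library. It had 204, 14.3 and 176 CPM in P216L, 99.5 CPM in S211I replicate 1 (81.8 in replicate 2) and 89.8, 8.12 and 338 CPM in the double mutant. Against 3 counts over the WT group, these are at least 45.8-fold, 31.5-fold and 50.5-fold higher, but none passed (adjusted p = 0.296, 0.456 and 0.362, and 0.912 for S211I without replicate 2). With DESeq2, Uros was called in P216L (adjusted p = 0.00496) and in the double mutant (0.00601) but not in S211I (0.0526), and with voom in S211I (0.00381) but not in P216L (0.181) or the double mutant (0.0548). Leaving out double mutant replicate 3, the library at 338 CPM, took the double mutant bound to 17-fold. Leaving out S211I replicate 2 took the S211I bound to 34.6-fold. Without WT replicate 2 or 3, which sets a higher floor, the bounds were 27.7 and 24.7-fold in P216L, 19.1 and 16.97-fold in S211I and 30.6 and 27.2-fold in the double mutant. Its lowest values rest on 12 counts in P216L replicate 2 and 3 counts in double mutant replicate 2. These values, 14.3 and 8.12 CPM, are under the 19.8 CPM that 3 counts make in WT replicate 1. The 0 of that WT library thus cannot be placed below them, and the Uros separation is not resolved against it. Urod was also above WT in every mutant library, with 93.6, 179 and 508 CPM in P216L, 238 CPM in S211I replicate 1 (270 in replicate 2), 147, 135 and 271 CPM in the double mutant and 46.3, 78.0 and 66.6 CPM in WT. The log2 differences were 2.27 ± 1.49, 2.28 ± 1.59 (1.96 ± 1.99 without S211I replicate 2) and 1.81 ± 1.47, and none passed. Genes whose mutant libraries all lay above WT were 3 of 9 in P216L (Uros, Urod and Fech), where 4.87% of all tested genes did so. They were 3 of 9 in S211I, against 16.6% (the same 3 genes as in P216L, against 26.5%, without S211I replicate 2), and 2 of 9 in the double mutant, against 11.3%. Below all WT libraries were 0 of 9 in each, where 4.69, 6.13 and 3.93% of all tested genes were in P216L, S211I and the double mutant (12% in S211I without replicate 2).

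The first step showed the widest scatter. Alas1 had 0 counts in all 3 HSC P216L libraries and in S211I replicate 1 (40.4 CPM in replicate 2), and 57.7, 2.71 and 19.1 CPM in the double mutant, against 119, 0 and 0 CPM in HSC WT. The WT level thus rests on 18 counts in 1 library. Alas2 had 0, 162 and 630 CPM in P216L, 38.5 CPM in S211I replicate 1 (10.5 in replicate 2) and 120, 0 and 85.8 CPM in the double mutant, against 46.3, 0 and 0 CPM in WT, where 46.3 CPM is 7 counts. The P216L mean of 264 ± 327 CPM and the WT mean of 15.4 ± 26.7 CPM overlap by library (4.76 ± 2.27 on the log2 scale, adjusted p = 0.375). Alas2 lies on the strand opposite to Apex2, and the library kit does not mark strand, so reads from their overlap cannot be told apart. Uros has such a neighbour in Bccip, Cpox in Gpr15, Ppox in B4galt3 and Alas1 in 4930500F10Rik. Estimated counts that were not whole occurred with and without such a neighbour, in 14 of 19 nonzero values for Ppox, 10 of 17 for Alas2 and 6 of 21 for Fech, and in 0 to 3 libraries for the other members.

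For the members in between, the mutant and WT ranges overlapped. Slc25a38 had 133, 77.6 and 201 CPM in HSC P216L, 27.1 CPM in S211I replicate 1 (124 in replicate 2) and 104, 81.2 and 192 CPM in the double mutant, against 119, 2.44 and 0 CPM in WT. Alad had 81.3, 306 and 976 CPM in P216L, 190 CPM in S211I replicate 1 (510 in replicate 2) and 326, 227 and 738 CPM in the double mutant, against 450, 2.44 and 350 CPM in WT. Cpox had 96.1, 257 and 972 CPM in P216L, 190 CPM in S211I replicate 1 (569 in replicate 2) and 299, 379 and 673 CPM in the double mutant, against 0, 156 and 423 CPM in WT. For these 3 genes P216L replicate 3 was the highest HSC library. Ppox had 0, 103 and 301 CPM in P216L, 229 CPM in S211I replicate 1 (123 in replicate 2) and 181, 233 and 137 CPM in the double mutant, against 471, 0 and 265 CPM in WT, with fitted log2 differences of −0.48 ± 1.48, −0.16 ± 1.66 (0.07 ± 2.11 without S211I replicate 2) and −0.10 ± 1.48. Over the 9 genes, 7 log2 differences were positive in each mutant, and 5 in S211I without replicate 2. Their median was 2.21 in P216L, 1.21 in S211I and 1.70 in the double mutant, beside medians of 0.13, 0.43 and 0.44 and positive shares of 52.9, 58.8 and 60.2% over all tested genes. Without S211I replicate 2 the S211I median was 0.07, beside −0.03 over all tested genes.

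**Figure D3:**
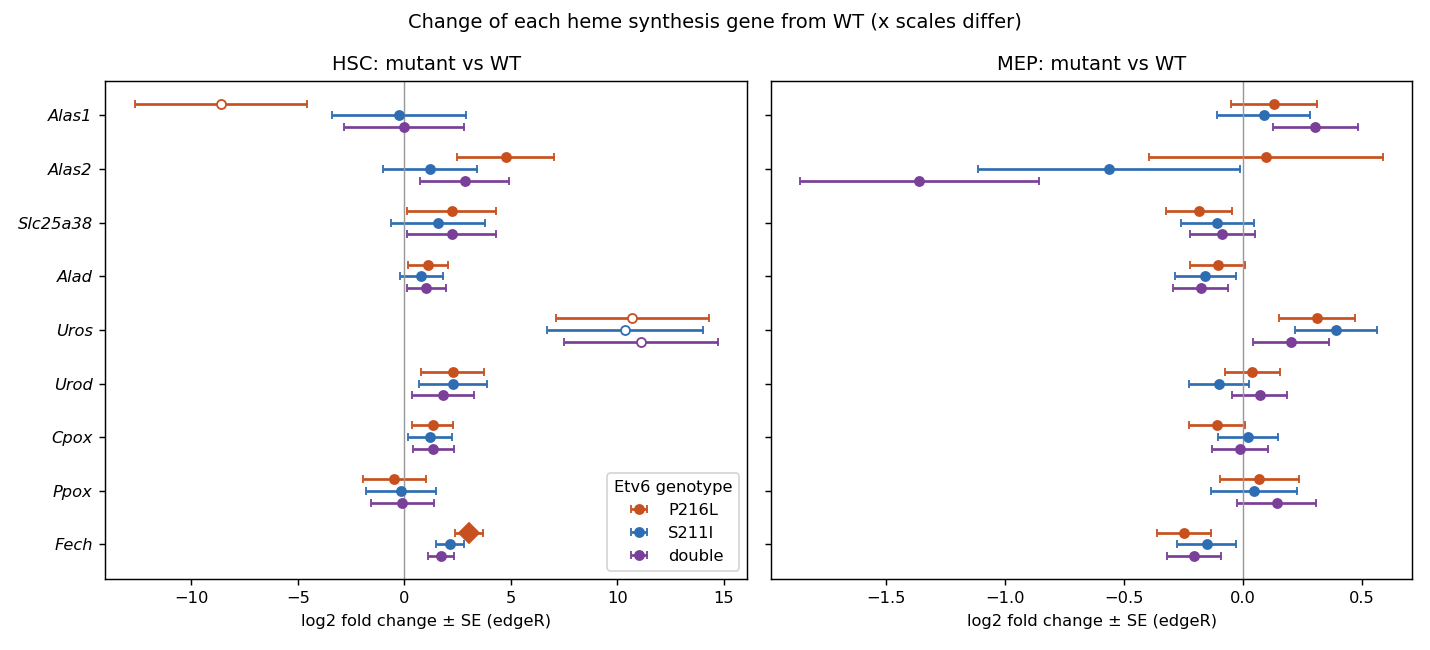
Log2 fold change of each heme synthesis gene in mutant against WT, in HSC (left) and in MEP (right), with SE bars from edgeR and a different x scale in each panel. The diamond (Fech in HSC P216L) passed an adjusted p of 0.05, and open symbols mark a group with all libraries at 0. Bars are far longer in HSC than in MEP, where Alas2 in the double mutant, at −1.36, is the point farthest from 0. The HSC S211I points include replicate 2.

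The summed level of the 9 genes in HSC was 3194, 1553 and 6384 CPM in P216L, 1751 CPM in S211I replicate 1 (2759 in replicate 2) and 2053, 1343 and 3419 CPM in the double mutant, against 1264, 524 and 1497 CPM in WT. P216L and S211I lay above WT, and double mutant replicate 2 lay within the WT range. The erythroid marker sum had the same extremes: both sums were highest of all 21 libraries in P216L replicate 3 and lowest of the HSC libraries in WT replicate 2. Between these the order differed in part. P216L replicate 1 had an erythroid sum of 11256 CPM, below the 12393 CPM of S211I replicate 1, but the higher heme sum. Double mutant replicate 1 had an erythroid sum of 18387 CPM, above the 17072 CPM of replicate 3, but the lower heme sum. The part of the markers in the heme sum was not tested. Genes read per library were 6, 8 and 8 of 9 in P216L, 8 in S211I replicate 1, 9, 8 and 9 in the double mutant, and 7, 5 and 5 in WT, where the libraries were also the shallowest on the median.

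**Figure D4:**
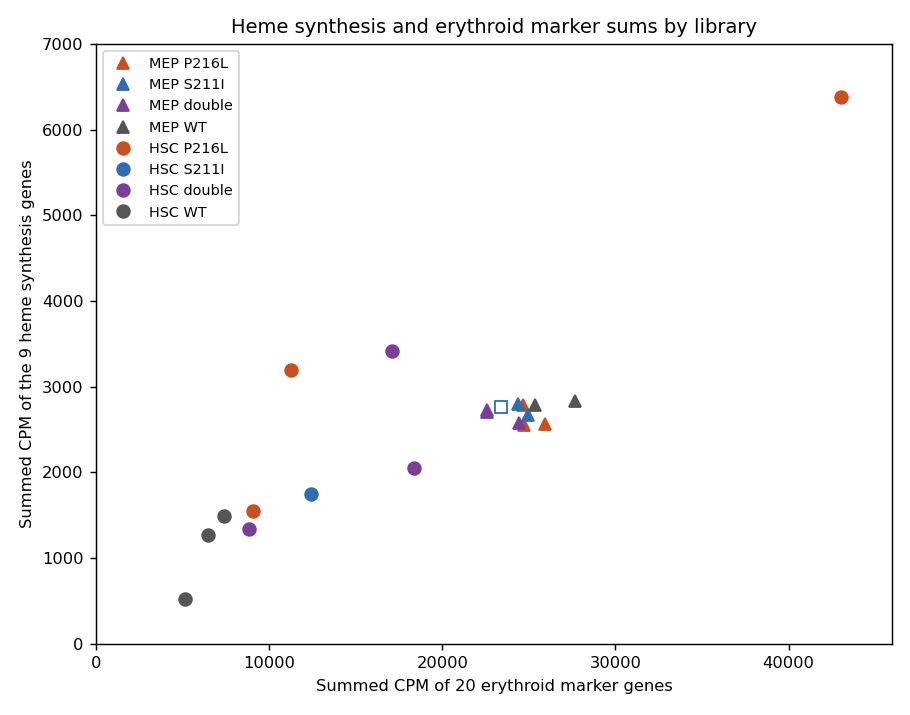
Summed CPM of the 9 heme synthesis genes (y) against summed CPM of 20 erythroid marker genes (x), with 1 point per library. Triangles are MEP, circles HSC, and the open square is HSC S211I replicate 2. The 10 MEP libraries and the square lie at 2554 to 2836 CPM of heme genes, HSC WT lies at the lower left and HSC P216L replicate 3 at the upper right.

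Set against HSC P216L, the HSC double mutant had 0 of 9 genes called by edgeR (2 at an unadjusted p under 0.05; 0 by DESeq2 and 0 by voom), where 0.0211% of all tested genes were called. Alas1 was the 1 gene without overlap, at 57.7, 2.71 and 19.1 CPM in the double mutant and 0 in all 3 P216L libraries, at least 18.5-fold higher (adjusted p = 0.712). The separation rests on 1 count in double mutant replicate 2, where 3 counts would be 8.12 CPM. The bound was 7.61-fold without double mutant replicate 1, and 11.1 and 10.99-fold without P216L replicates 2 and 3. Of all tested genes, 6.88% lay above P216L without overlap, and 1.84% lay below, where 0 of 9 members did. Fech was at 657 ± 350 CPM in the double mutant and 1886 ± 1240 CPM in P216L (SD, n = 3 each), a log2 difference of −1.33 ± 0.60 (adjusted p = 0.712).

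The MEP mutants were compared with the same 2 MEP WT libraries, and 0 of 9 genes were called in P216L, S211I or the double mutant by edgeR, with 1 in each at an unadjusted p under 0.05 and 0 by DESeq2 and by voom. All tested genes were called at 0%, 0% and 0.102%. The Alas2 level was the widest difference. It was 6.65, 6.77 and 6.55 CPM in the MEP double mutant, against 16.1 and 17.7 CPM in MEP WT, and these do not overlap. The difference was −1.36 ± 0.50 on the log2 scale and did not pass (adjusted p = 0.891). Against MEP P216L, at 8.80, 20.9 and 26.5 CPM, the double mutant was again below every library (−1.46 ± 0.47, adjusted p = 0.764). It was 1 of 9 genes below P216L without overlap, where 4.95% of all tested genes were, and 0 of 9 lay above, where 4.57% were. MEP S211I replicates stood at 19.6 and 3.82 CPM, on either side of the double mutant. Without the filter on low counts, both differences of the double mutant passed (adjusted p = 0.0245 against WT and 0.00292 against P216L), and over the alternatives the adjusted p ran from 0.0245 to 1.00 against WT and from 0.00292 to 1.00 against P216L.

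Fech, which was high in HSC P216L, was at 896, 767 and 784 CPM in MEP P216L, 896 and 867 CPM in MEP S211I and 892, 885 and 731 CPM in the MEP double mutant, against 923 and 986 CPM in MEP WT. All 8 mutant libraries were below both WT libraries, by −0.25 ± 0.11, −0.15 ± 0.12 and −0.21 ± 0.11 on the log2 scale, and none passed (adjusted p = 0.976, 0.939 and 0.988). Uros was above WT in all 8, with 102, 82.5 and 85.5 CPM in P216L, 102 and 90.5 CPM in S211I and 74.7, 91.4 and 83.1 CPM in the double mutant, against 71.4 and 71.8 CPM in WT. These were log2 differences of 0.31 ± 0.16, 0.39 ± 0.17 and 0.20 ± 0.16, with adjusted p of 0.984, 0.939 and 0.999. Alad lay below WT without overlap in S211I and in the double mutant, at 516 and 518 CPM and at 479, 501 and 525 CPM, against 583 and 540 CPM in WT. Alas1 lay above WT without overlap in the double mutant alone, at 56.0, 57.0 and 51.3 CPM against 38.9 and 48.6 CPM (0.30 ± 0.18, adjusted p = 0.999). Not overlapping and higher were 1, 1 and 2 of 9 genes in P216L, S211I and the double mutant, where 10.7, 21.8 and 13.8% of all tested genes were. Not overlapping and lower were 1, 2 and 3 of 9, against 6.94, 15 and 11%. The 3 comparisons share the 2 WT libraries. The share of all genes lying above or below WT in all 8 mutant libraries was not counted.

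Against the MEP single mutants, the MEP double mutant had 0 of 9 genes called by edgeR, DESeq2 and voom against P216L (1 at an unadjusted p under 0.05) and against S211I (0), where 0.111% and 0.139% of all tested genes were called. Apart from Alas2 against P216L, the 1 gene without overlap was Urod, at 314, 325 and 328 CPM in the double mutant and 284 and 300 CPM in S211I (0.17 ± 0.12 on the log2 scale, adjusted p = 0.751). It was 1 of 9 genes above S211I without overlap, where 13.3% of all tested genes were, and 0 of 9 lay below, where 17% were.

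Whether a mutant's difference from WT itself differed between HSC and MEP was tested in the joint fit. By edgeR 0 of 9 genes passed for P216L, S211I or the double mutant (4, 1 and 1 at an unadjusted p under 0.05), where 0.0997%, 0% and 0.0166% of all tested genes did. DESeq2 called 2, 1 and 1 genes and voom 0 in each. For Fech the difference of differences, HSC minus MEP, was 3.34 ± 1.07 on the log2 scale in P216L (adjusted p = 0.193), 2.40 ± 1.18 in S211I (0.470; 1.69 ± 1.34 and 0.697 without HSC replicate 2) and 2.04 ± 1.06 in the double mutant (0.363). For Alas2 it was 4.91 ± 2.56, 1.98 ± 2.78 and 4.49 ± 2.55, with adjusted p of 0.347, 0.902 and 0.424 (2.36 ± 3.08 and 0.972 for S211I without HSC replicate 2). The Fech change in P216L is thus not shown to differ between HSC and MEP.

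The balance of the pair of enzymes of the first step was taken as the Alas2 share of Alas1 plus Alas2, each per kilobase of coding sequence, as a description with no test. In MEP it was 17.5, 31.4 and 36.1% in P216L, 33.3 and 7.32% in S211I, 11.5, 11.5 and 12.3% in the double mutant, and 31.1 and 28.5% in WT. The double mutant libraries were close to each other and below all libraries of P216L and WT, while the S211I libraries lay on both sides. In HSC the share was 100% in P216L replicates 2 and 3, from 136 and 536 Alas2 counts, and P216L replicate 1 had no count of either gene. It was 100% in S211I replicate 1, from 17 Alas2 counts (22.2% in replicate 2), and 69.4, 0 and 83.1% in the double mutant, where the 0% rests on 1 Alas1 count. In WT it was 29.8% in replicate 1, and replicates 2 and 3 had no count of either gene. Pooled over genotypes, the mean was 22.1 ± 11.01% in MEP (SD, n = 10). It was 68.9 ± 39.5% over the 7 HSC libraries with a count, leaving out S211I replicate 2. Only 1 of these 7 was WT, at 29.8%, beside a mean of 29.8% in MEP WT (n = 2). The pooled means thus mix genotypes and do not compare the cell types.

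**Figure D5:**
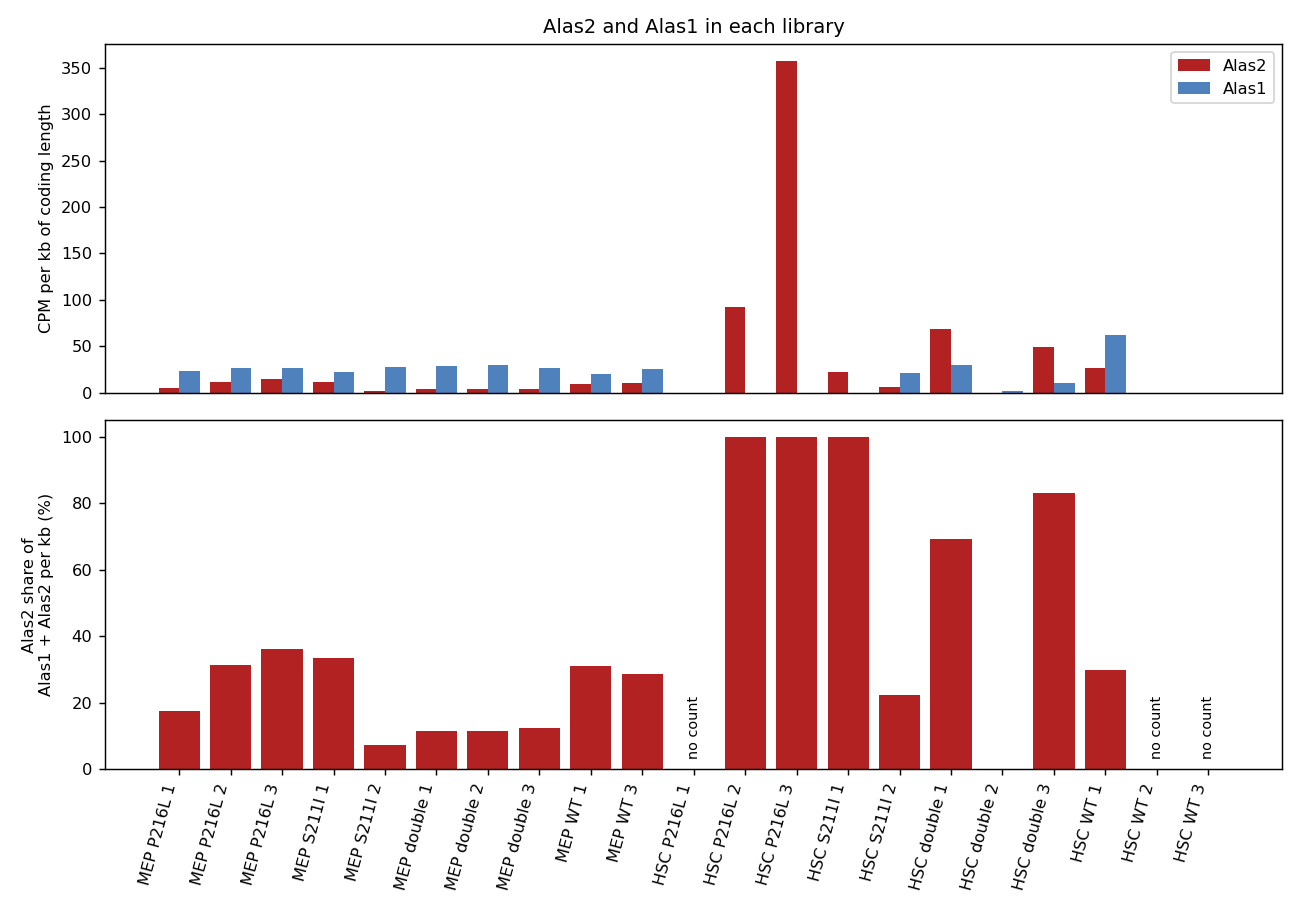
Alas1 and Alas2 levels as CPM per kb of coding sequence, and the Alas2 share of their sum in percent, for every library, with MEP left of HSC. Libraries with neither gene read are marked as having no count. The MEP shares run from 7.32 to 36.1%, and the HSC shares from 0 to 100%.

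Other genes of heme and iron handling were counted over 3 lists. In MEP WT against HSC WT, 4 of 18 tested genes of heme handling rose and 0 fell, beside 3.62% of all tested genes that rose. They were Blvrb, a biliverdin reductase (5.87 ± 1.09 on the log2 scale, adjusted p = 0.00339), the porphyrin transporter Abcb6 (7.43 ± 1.46, 0.00558), the heme-binding protein Pgrmc1 (6.41 ± 1.53, 0.0183) and the heme exporter Flvcr1, which was at 0 in all HSC WT libraries. Of 16 regulators, the erythroid factor Klf1 (3.76 ± 0.85, adjusted p = 0.0131) and the erythropoietin receptor Epor (7.68 ± 1.96, 0.0269) rose and 0 fell. Of 18 genes of mitochondrial iron and iron-sulphur clusters, 0 were called by edgeR, and the chaperone Hspa9 came closest by p (2.17 ± 0.66, adjusted p = 0.0545). In every comparison of a mutant, with WT, with another mutant or between cell types, 0 genes of the 3 lists were called by edgeR. In HSC P216L against WT the smallest p of the heme handling list was that of Blvrb, with 315, 93.1 and 547 CPM in P216L, 210 CPM in S211I replicate 1 (353 in replicate 2), 289, 75.8 and 496 CPM in the double mutant and 6.61, 0 and 27.1 CPM in WT. Every mutant library was above WT, and the P216L difference of 4.83 ± 1.52 did not pass (adjusted p = 0.252). Klf1 had 1086, 549 and 463 CPM in HSC P216L, against 0, 75.6 and 129 CPM in HSC WT (3.28 ± 1.00, adjusted p = 0.201).

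Over the 20 libraries other than HSC S211I replicate 2 and 12035 genes, the genes with log2(CPM + 1) most like Fech were Atp5mpl, Cox4i1, Slbp, E2f4 and Exosc8 (Pearson r 0.953 to 0.925). Those most like Alas2 were Lgals1, Ankle1, Retreg1, Akap10 and Zfp329 (r 0.882 to 0.775). These values describe the libraries, which share depth and cell type differences across all genes.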

How the data were processed

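RNA from sorted cells was made into libraries with a low-input kit (SMART-Seq v4) that does not mark strand. The authors deposited estimated counts per gene, made with Salmon on GRCm39, per the submitters' processing notes; FastQC is also named, with no version for either tool. Values that were not whole (tolerance 0.01) made up 4.46 to 23.63% of the nonzero ones in a library, and the estimated counts were rounded for testing. Of 30519 Entrez IDs, 30211 took a symbol and 308 did not; 0 sample columns were left unmapped. CPM were computed from plain library totals. Coding and transcript lengths are those of the longest coding sequence in the supplied annotation, since no protein table was used. Depth ran from 151216 to 13154016 counts, and 3 counts were taken as the floor, which covers counting error only.

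Tests were edgeR 4.0.16 quasi-likelihood fits (R 4.3.3, TMM, minimum count 10 and minimum total 15, Benjamini-Hochberg adjusted p under 0.05) over HSC, over MEP and over all libraries jointly, with group as the only term. The SE is the log2 fold change divided by the root of F. The scripts were tested on simulated data. Alternatives were RLE size factors, no filter on low counts, a replicate block, DESeq2 1.42.0, voom with quality weights (limma 3.58.1), thinning to 151215 counts, fits of only the groups compared, and leaving out each library. Since separate animals are not stated, p-values measure the spread between these samples, which may be technical. The 9 genes were all named, context genes only where they passed, or as at most 2 with the smallest p, and the 5 genes most like Alas2 and Fech. The members, lists and tests were chosen with earlier results of these data known. Promoters are from RefSeq.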

Additional observations from a re-analysis of the deposited data

How the results depend on the processing

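Of the 144 differences (9 genes in 16 comparisons), 141 were not called. Under at least 1 alternative, 59 of these changed sign or went to 0, and 14 were called. The direction of an uncalled difference is thus not settled here. For HSC P216L against WT, the count of called members was 0 with no filter on low counts, with voom, in thinned libraries and with only the groups compared. There the adjusted p of Fech was 0.704, 0.405, 0.269 and 0.994, and 0.0750 with DESeq2, where the called member was Uros (0.00496) in place of Fech; the cause was not tested. The count was 1 for HSC S211I with voom, 1 for the HSC double mutant with DESeq2, and 1 each for the MEP double mutant against WT and P216L with no filter. For MEP WT against HSC WT it was 1 with RLE factors, with no filter, with the replicate block and when thinned, 6 with voom and 0 with only the groups compared. DESeq2 gave 1 for MEP against HSC in P216L and 2, 1 and 1 for the differences between HSC and MEP effects of P216L, S211I and the double mutant.

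Leaving out single libraries gave 0 to 1 called members for HSC P216L against WT, 0 to 2 for MEP WT against HSC WT, and 0 to 0 for the other 14 comparisons. Same-numbered libraries showed, on the median, no shared deviation from their group means. The median r was 0.00739 over 15 HSC pairs, −0.00152 over 12 MEP pairs and −0.0114 over 37 pairs of HSC with MEP. These pairs join or pool different genotypes, so they do not settle whether same-numbered HSC and MEP libraries of 1 genotype share an animal. The main fits did not treat the samples as paired. With the replicate block, Fech kept its call in HSC P216L (adjusted p = 0.0110), Urod lost its call between WT cell types (0.0658), and no other member's call changed.

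Counts over all genes moved far more. Over all alternatives they ran from 0 to 302, 0 to 543 and 0 to 177 in HSC P216L, S211I and the double mutant against WT (10, 8 and 7 as reported), 0 to 43 for the HSC double mutant against P216L (2), 0 to 10 for MEP P216L (0), 3 to 40, 3 to 47 and 4 to 51 for the MEP double mutant against WT, P216L and S211I (11, 12 and 15), 0 to 2160 between WT cell types (493), 0 to 1290, 0 to 104 and 3 to 947 in P216L, S211I and the double mutant (9, 0 and 29), and 0 to 943, 0 to 471 and 0 to 679 for the differences between effects (12, 0 and 2). The mean Alas2 share moved to 27.7% in MEP with transcript length, an alternative chosen after seeing the data, and 20.6% with no length. Bounds against groups at 0 with single libraries left out, and S211I ranges without replicate 2, were also chosen after seeing the data. HSC depth limits the HSC results: at 151216 counts, 3 counts are 19.8 CPM.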
